A study of Homo sapiens with 4 samples.

Results

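The cohesin genes examined here encode the ring subunits SMC1A, SMC3 and RAD21, the ring-bound subunits STAG1 and STAG2, the loader NIPBL, the ring-associated regulators PDS5A and PDS5B, and the acetyltransferases ESCO1 and ESCO2. These 10 genes were chosen by name from the cohesin machinery, with their LY101-4B minus vehicle differences on these arrays already in view and with the opposite differences of ESCO1 and ESCO2 named in the choice. Their values in that comparison are therefore given as a description, with no test. All 10 were measured, each by 1 probe set annotated with that gene alone, among 18417 genes measured in the same way.

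The samples were cultures of MiaPaCa2, a human pancreatic carcinoma cell line, grown for 24 h with LY101-4B at 50 µM (2 arrays) or with vehicle (2 arrays). The series title calls LY101-4B an E2F inhibitor, E2F being the transcription factor family that drives genes of DNA replication; sensitivity of the line to it is the stated subject. A protocol entry shared by the samples instead gives LY101-4D at 25 µM, whereas the titles, the agent labels and the design give LY101-4B at 50 µM, which was followed. The replicates are called biological, and all groups come from the same line, so nothing here speaks for other cells.

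Cohesin is a ring that holds sister DNA molecules together from their replication until anaphase and that also extrudes chromatin loops. NIPBL loads the ring onto DNA, the PDS5 proteins bind it and take part in both its release and its stabilisation, and the STAG proteins are alternative subunits that bridge the ring to DNA and to partners such as CTCF. Acetylation of SMC3 locks rings on replicated DNA: ESCO2 does this chiefly in S phase at replication forks, and ESCO1 acts through the cell cycle together with PDS5 proteins.

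Expression was read on Human Gene 1.0 ST arrays as log2 RMA values, which are background-corrected, quantile-normalised summaries of many short probes along a transcript. A difference of 1 unit is a 2-fold difference, and levels of different probe sets are not comparable with each other. The label protocol names a FlashTag Biotin HSR kit, a type usually meant for small RNA, and whether that entry describes these arrays is uncertain. Array medians lay between 5.88 and 5.97. The LY101-4B arrays correlated at r = 0.994 and the vehicle arrays at r = 0.997 over 21214 annotated probe sets, against 0.978 to 0.981 between groups. Of the line's markers, the keratin gene KRT8 averaged 11.94 with LY101-4B and 12.77 with vehicle (called lower), and the mesenchymal filament gene VIM averaged 12.51 with LY101-4B and 12.65 with vehicle. The epithelial genes CDH1 (4.58 with LY101-4B and 4.49 with vehicle) and EPCAM (3.88 and 3.94) lay below the array medians. The 7 measured markers of leukocytes, endothelium, fibroblasts and acinar cells averaged between 3.37 and 6.95 with LY101-4B and between 3.46 and 6.88 with vehicle. Of these, limma called 0 (0 at an unadjusted p under 0.05), where 10.5% of all probe sets were called lower and 9.10% higher. With 7 genes, that count says little. No detection calls were used here, so no gene is called absent. In bulk RNA, fewer cells of one phase or type and less RNA per cell cannot be told apart.

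With LY101-4B, the cohesin genes differed from vehicle to very different extents. The differences ran from -2.12 log2 units for ESCO2 to 0.66 for ESCO1, with a median of -0.45, against 0.005 over all genes. Below the 5th percentile of all genes, at -0.62, lay 5 members (ESCO2, SMC1A, SMC3, PDS5B and RAD21), and above the 95th percentile, at 0.59, lay 1 (ESCO1). The 4 others lay between -0.24 and -0.02. The same 5 were called lower and ESCO1 higher by limma at an adjusted p under 0.05 over all annotated probe sets, where 10.5% were called lower and 9.10% higher. Since the choice of members used this comparison, nothing is read from that count. Without either vehicle array, 3 members (ESCO2, SMC1A and SMC3) were called lower and 0 higher: RAD21, PDS5B and ESCO1 missed the threshold both times. With all rows of the table tested, ESCO1 missed it as well. Groups did not overlap for 8 members, 7 of them lower and 1 higher, where 29.5% of all probe sets were lower without overlap and 28.5% higher.

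**Figure D1:**
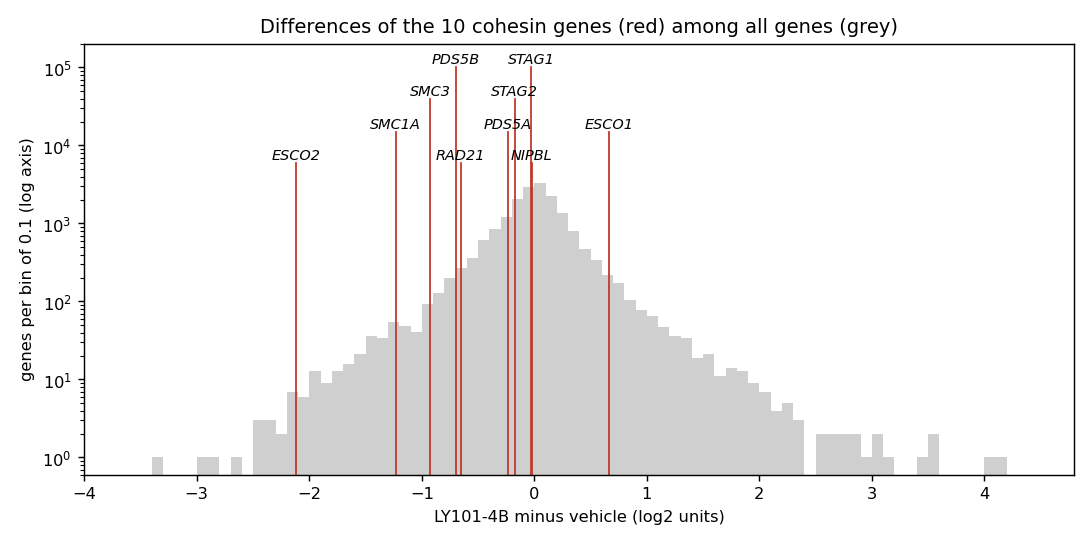
Histogram of LY101-4B minus vehicle differences (x axis, log2 units) over 18417 genes, with the number of genes per bin of 0.1 on a log y axis. Red lines mark the 10 cohesin genes, which range from -2.12 (ESCO2) to 0.66 (ESCO1), with STAG1 and NIPBL at the centre of the distribution.

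The acetyltransferase genes ESCO1 and ESCO2 stood at the opposite ends. ESCO2 read 6.55 and 7.10 log2 units on the LY101-4B arrays, against 8.90 and 8.97 on the vehicle arrays. Each LY101-4B array lay well below both vehicle arrays, and the LY101-4B arrays were farther from each other than the vehicle arrays were. The means were 6.82 ± 0.39 and 8.94 ± 0.05 (SD, n = 2 each), a difference of -2.12 ± 0.18 (moderated SE), or 4.34-fold lower, which placed ESCO2 18th from the bottom of 18417 genes. Its 95% interval ran from -2.57 to -1.66.

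ESCO1 read 8.45 and 8.84 with LY101-4B, against 7.92 and 8.05 with vehicle. Here both LY101-4B arrays lay above both vehicle arrays, although the gap to the nearest vehicle value was about as wide as the gap between the LY101-4B arrays. ESCO1 averaged 8.65 ± 0.28 with LY101-4B and 7.98 ± 0.09 with vehicle (SD, n = 2 each), a difference of 0.66 ± 0.15 (SE), or 1.58-fold higher, with a 95% interval from 0.30 to 1.03. It was the only member with a value above 0, at place 730 from the top.

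Within each array, the ESCO2 value less the ESCO1 value, set to a vehicle mean of 0, was -2.86 and -2.70 with LY101-4B and 0.03 and -0.03 with vehicle. The balance between these genes thus differed by -2.78 ± 0.08 log2 units (SE over the 4 arrays), or 6.87-fold towards ESCO1. Left out in turn, single arrays gave -2.86 to -2.70. This contrast was named in the choice of genes and has no test. It is a change in relative transcript signal and gives no ratio of ESCO2 to ESCO1 molecules, since probe sets differ in brightness.

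**Figure D2:**
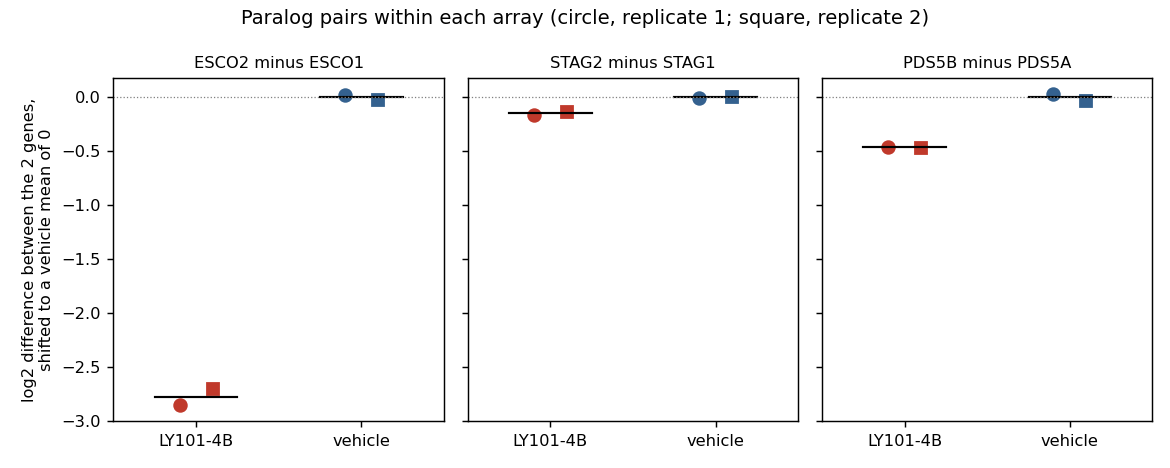
Log2 difference between the genes of 3 paralog pairs within each array, shifted so that the vehicle mean is 0 (y axis), for LY101-4B (red) and vehicle (blue), with the mean as a line. LY101-4B arrays lie at -2.86 and -2.70 for ESCO2 minus ESCO1, near -0.15 for STAG2 minus STAG1 and at -0.46 for PDS5B minus PDS5A.

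Among the 3 genes whose 4-array profiles lay closest to that of ESCO2, by Euclidean distance after subtraction of each gene's mean, were PRIM1, a subunit of DNA primase (distance 0.155), and the histone gene H3C12 (0.165). They differed by -1.97 and -1.99 log2 units. H3C12 belongs to a family of near-identical copies, so its value is uncertain. Closest to ESCO1 were ABCA5, a transporter gene (0.0713), CASTOR1, which encodes an arginine sensor (0.0714), and DYNC2H1, a dynein motor gene of cilia (0.0740), at 0.62, 0.73 and 0.72. With 4 arrays in 2 groups, such likeness rests on little more than the size of the treatment difference and the replicate offsets.

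Among the ring subunits, all 3 core genes lay lower with LY101-4B. SMC1A, which encodes an ATPase arm of the ring, read 7.43 and 7.65 with LY101-4B, against 8.78 and 8.75 with vehicle. SMC3, the partner arm and the substrate of the ESCO enzymes, read 8.49 and 8.89 with LY101-4B, against 9.56 and 9.68 with vehicle. RAD21, the kleisin that closes the ring and is cleaved at anaphase, read 9.64 and 9.82 with LY101-4B, against 10.40 and 10.37 with vehicle. In none of these genes did the groups overlap, and the vehicle arrays lay close together.

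SMC1A averaged 7.54 ± 0.16 with LY101-4B and 8.77 ± 0.02 with vehicle (SD, n = 2 each), a difference of -1.23 ± 0.11 (SE), or 2.35-fold. SMC3 averaged 8.69 ± 0.28 and 9.62 ± 0.08 in the same order, a difference of -0.93 ± 0.15, or 1.90-fold. RAD21 averaged 9.73 ± 0.13 and 10.38 ± 0.02, a difference of -0.66 ± 0.10, or 1.58-fold. The 95% intervals were -1.49 to -0.97 for SMC1A, -1.29 to -0.56 for SMC3 and -0.90 to -0.41 for RAD21. In rank from the lowest difference of all genes they stood at 196, 376 and 836.

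The alternative subunits STAG1 and STAG2 differed little between groups. STAG1 read 8.79 and 8.99 with LY101-4B, against 8.86 and 8.97 with vehicle, so that the groups overlapped. STAG2 read 9.70 and 9.92 with LY101-4B, against 9.93 and 10.04 with vehicle. The higher LY101-4B array came within 0.01 of the lower vehicle array for STAG2, and neither gene was called. The differences were -0.03 ± 0.11 for STAG1 (95% interval -0.29 to 0.24) and -0.18 ± 0.11 for STAG2 (-0.45 to 0.10). The sign for STAG1 turned to 0.04 with cyclic loess, 0.07 without LY101-4B replicate 1 and 0.02 without vehicle replicate 2. STAG2 less STAG1 differed by -0.15 ± 0.01 (SE over the arrays), a 1.11-fold difference. That SE is not moderated, unlike those of the genes, and can be small by chance with 2 residual degrees of freedom.

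NIPBL, the loader gene, read 8.47 and 8.80 with LY101-4B, against 8.60 and 8.71 with vehicle. Both vehicle values lay between the LY101-4B values. The difference was -0.02 ± 0.13 (95% interval -0.35 to 0.30), and it turned to 0.04 with cyclic loess, 0.14 without LY101-4B replicate 1 and 0.04 without vehicle replicate 2.

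The regulator genes PDS5A and PDS5B parted from each other. PDS5B read 7.86 and 8.10 with LY101-4B, against 8.66 and 8.71 with vehicle. PDS5A read 9.16 and 9.40 with LY101-4B, against 9.46 and 9.58 with vehicle. The groups were separate in both genes, widely for PDS5B and by less than the distance between the LY101-4B arrays for PDS5A. PDS5B differed by -0.70 ± 0.11 (1.62-fold lower, 95% interval -0.97 to -0.43) and PDS5A by -0.24 ± 0.12 (1.18-fold lower, -0.52 to 0.05), which was not called. PDS5B less PDS5A, taken within arrays, differed by -0.46 ± 0.03 (SE over the arrays). That value was -0.46 on each LY101-4B array, so the offset between those arrays was shared by the pair.

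**Figure D3:**
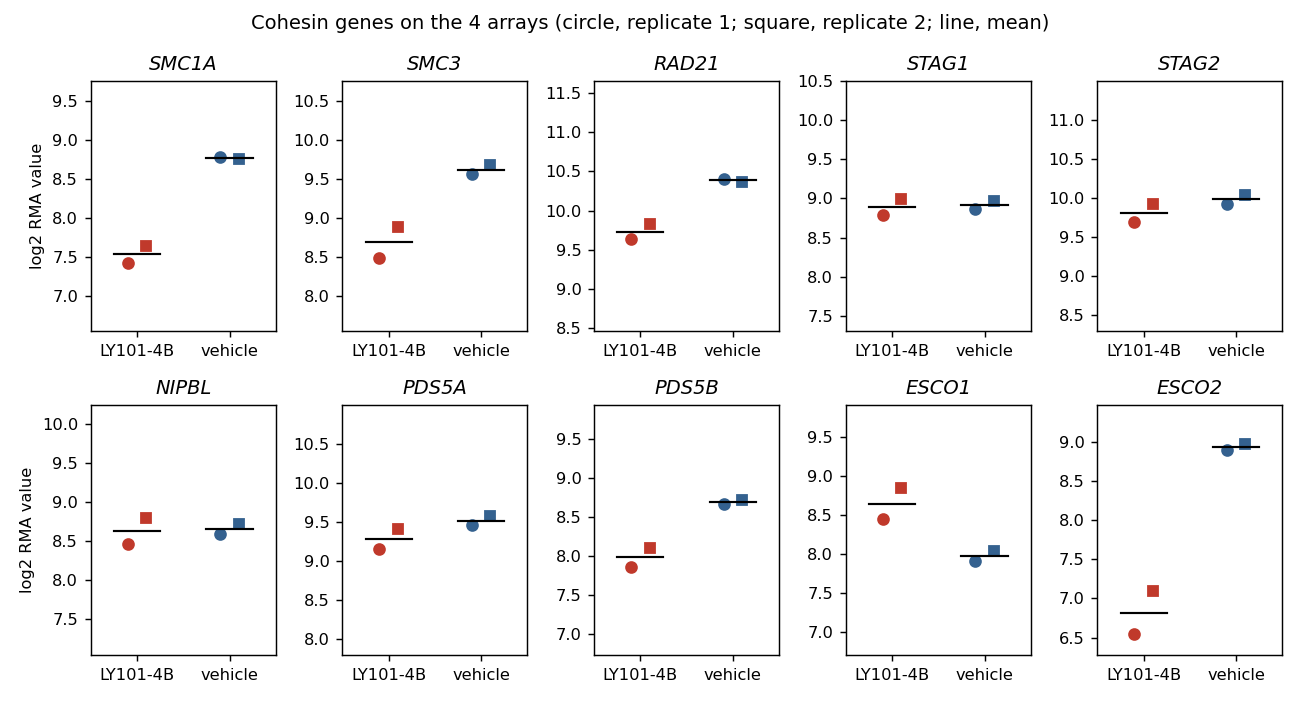
Log2 RMA value (y axis, 3.2 units high in every panel) of each cohesin gene on the 4 arrays, LY101-4B in red and vehicle in blue, with the group mean as a line. ESCO2, SMC1A, SMC3, RAD21 and PDS5B lie lower with LY101-4B, ESCO1 lies higher, and replicate 2 lies above replicate 1 for all 10 genes with LY101-4B.

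The LY101-4B arrays differed from each other in one direction across these genes. Replicate 2 exceeded replicate 1 for 10 of 10 members, by 0.19 to 0.55 log2 units (median 0.24), whereas over all annotated probe sets it was higher for 57.8%, with a median of 0.04. Between the vehicle arrays, replicate 2 was higher for 8 of 10 members, with a median of 0.11 against -0.001 over all probe sets. Each member's SD was larger with LY101-4B (0.13 to 0.39) than with vehicle (0.02 to 0.09). The part of this offset in the results was not tested. The groups did not overlap for ESCO1, ESCO2, SMC1A, SMC3, RAD21 and PDS5B. Leaving out a single LY101-4B array could therefore not turn their direction.

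Promoter sequence was set beside these values because the compound is labelled an E2F inhibitor. RefSeq windows (GRCh38.p14) of 300 bases, 250 before and 50 after a start site, were matched by symbol for 7 members: SMC1A (2 start sites), SMC3, STAG1, STAG2 (3 start sites), NIPBL, PDS5A and PDS5B. ESCO1, ESCO2 and RAD21 were not used here. Each window was searched on both strands for the E2F core letters TTCCCGC or TTCGCGC or TTGCCGC or TTGGCGC, for the cell cycle homology element TTTGAA and for the GC box GGGCGG. Of all 35116 windows in the table, 13.0% held an E2F core, 15.2% the TTTGAA element and 45.0% a GC box, and counted over 27305 genes with any window the shares were 15.3%, 18.2% and 48.3%.

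An E2F core lay in at least 1 window of 6 of the 7 genes: STAG1, STAG2, NIPBL and PDS5A, which were not called, and SMC1A and PDS5B, which were called lower. SMC3, also called lower, had none of these letters and held TTTGAA instead, as PDS5B did too. All 7 genes held a GC box, and the STAG1 match overlapped one. The windows shown are those of the PDS5 pair, whose differences parted, and those of SMC1A and SMC3, the arms of the ring. Capitals mark the E2F core on either strand, and each sequence runs 5′ to 3′ on the gene's own strand. PDS5A has 4 matches, beginning 210, 192, 117 and 114 bases before the start, of which the last 2 overlap. PDS5B has 1 beginning 5 bases before it, and SMC1A has 1 beginning 19 bases before the second of its start sites.
PDS5A, chr4:39977862-39978161, minus strand: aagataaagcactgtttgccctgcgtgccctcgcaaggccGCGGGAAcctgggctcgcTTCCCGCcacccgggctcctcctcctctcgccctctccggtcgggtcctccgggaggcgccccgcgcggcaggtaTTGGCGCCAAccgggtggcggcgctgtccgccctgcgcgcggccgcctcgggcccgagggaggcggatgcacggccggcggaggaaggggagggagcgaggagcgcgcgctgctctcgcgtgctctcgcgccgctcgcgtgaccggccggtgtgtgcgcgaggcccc
PDS5B, chr13:32586202-32586501, plus strand: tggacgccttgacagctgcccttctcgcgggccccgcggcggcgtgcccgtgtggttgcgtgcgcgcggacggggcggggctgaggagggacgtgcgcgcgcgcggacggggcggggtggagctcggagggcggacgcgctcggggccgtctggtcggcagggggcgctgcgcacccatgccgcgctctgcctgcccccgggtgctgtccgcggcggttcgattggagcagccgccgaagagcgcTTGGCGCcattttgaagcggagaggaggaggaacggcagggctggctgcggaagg
SMC1A, chrX:53422605-53422904, minus strand: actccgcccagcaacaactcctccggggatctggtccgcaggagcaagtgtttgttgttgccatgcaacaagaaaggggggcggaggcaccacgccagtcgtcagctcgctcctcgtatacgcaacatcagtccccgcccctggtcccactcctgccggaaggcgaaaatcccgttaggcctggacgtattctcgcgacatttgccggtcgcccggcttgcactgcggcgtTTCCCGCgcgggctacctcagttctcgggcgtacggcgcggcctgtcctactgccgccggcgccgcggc
SMC3, chr10:110567445-110567744, plus strand: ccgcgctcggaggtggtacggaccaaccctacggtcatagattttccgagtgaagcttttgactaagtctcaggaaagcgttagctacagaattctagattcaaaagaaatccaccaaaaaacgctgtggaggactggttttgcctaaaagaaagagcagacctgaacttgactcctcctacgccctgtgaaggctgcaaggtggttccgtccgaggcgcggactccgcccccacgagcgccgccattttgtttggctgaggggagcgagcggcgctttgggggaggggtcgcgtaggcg
A match shows only that the letters are present, and a window without one says nothing of E2F binding elsewhere.

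Genes that act on cohesin but are not among the 10 were taken from lists set by function, with earlier results of these data known. The counts and p-values of these lists, here and below, are therefore no independent support. Of 9 regulators, 6 fell, 0 rose and 3 did not pass (limma adjusted p under 0.05 over all annotated probe sets), with a median of -0.89 log2 units against 0.005 over all genes and 10.5% of all probe sets called lower. At an unadjusted p under 0.05, 0 rose. Those that fell protect or dissolve cohesion. CDCA5, which encodes sororin, the factor that secures acetylated rings against release, read 7.03 and 6.90 with LY101-4B, against 8.36 and 8.45 with vehicle. It fell by 1.44 ± 0.10 log2 units (SE, limma adjusted p 0.00093), or 2.71-fold.

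SGO1 and SGO2, shugoshin genes whose proteins protect centromeric cohesin, fell 2.15-fold and 1.86-fold (limma adjusted p 0.0159 and 0.0202). ESPL1, which encodes separase, the protease that cuts RAD21, read 6.42 and 6.38 with LY101-4B, against 7.32 and 7.44 with vehicle, and fell 1.97-fold (limma adjusted p 0.00213). PTTG1, which encodes securin, the inhibitor of separase, fell 1.65-fold (limma adjusted p 0.00398). PLK1, the mitotic kinase that promotes removal of cohesin from chromosome arms, fell 1.94-fold (limma adjusted p 0.00256). Among the regulators that fell, the shugoshin calls were the less firm. Over all rows, SGO1 and SGO2 missed the threshold (limma adjusted p 0.0629 and 0.0724), while CDCA5 kept its call (0.0112). Both shugoshin genes also missed it without vehicle replicate 2 (differences -1.05 and -0.74 log2 units), and SGO2 without LY101-4B replicate 1 (-0.68).

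The 3 regulators that did not pass act on loading, release and deacetylation. No split by function follows from the threshold, since release also dissolves cohesion and HDAC8 lay lower without overlap. MAU2, the partner of NIPBL in the loader, read 7.22 and 7.23 with LY101-4B, against 7.18 and 7.04 with vehicle (difference 0.12 ± 0.09, limma adjusted p 0.453). WAPL, which opens the ring, read 9.66 and 9.59 with LY101-4B, against 9.75 and 9.73 with vehicle (-0.11 ± 0.09, limma adjusted p 0.441). HDAC8, which removes the acetyl groups that ESCO enzymes place on SMC3, read 7.78 and 7.94 with LY101-4B, against 8.19 and 8.18 with vehicle (-0.32 ± 0.10, limma adjusted p 0.0700). HDAC8 passed when arrays were centred on their medians (adjusted p 0.0472), among the brighter 50% of probe sets (0.0223), with an intensity trend (0.0384) and without LY101-4B replicate 2 (0.0455), over a range of 0.0223 to 0.301.

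Of the 4 meiotic cohesin subunits, limma called 0 (0 at an unadjusted p under 0.05). Among all probe sets 10.5% were called lower and 9.10% higher, so a count of 0 in 4 genes says little. STAG3, SMC1B, REC8 and RAD21L1 averaged 3.34 to 5.75 log2 units with LY101-4B and 3.29 to 5.65 with vehicle, below the array medians. Their differences were 0.15 ± 0.13, -0.22 ± 0.13, 0.00 ± 0.08 and 0.05 ± 0.10 (limma adjusted p 0.496, 0.295, 0.981 and 0.782).

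Factors that couple cohesion to the replication fork, where ESCO2 acts, fell in 6 of 8 measured cases and rose in 0 (median -1.48 log2 units). Among all probe sets 10.5% were called lower and 9.10% higher, and the median over all genes was 0.005. CLSPN, the fork checkpoint mediator claspin, read 6.20 and 6.47 with LY101-4B, against 9.20 and 9.34 with vehicle. PCNA, the sliding clamp to which ESCO2 binds, fell 3.63-fold, and WDHD1, the fork adaptor AND-1, fell 3.57-fold. DSCC1, a subunit of the alternative clamp loader that favours SMC3 acetylation, fell 3.28-fold. The limma adjusted p of these 4 ranged from 0.00043 to 0.00197. The other subunits of that clamp loader, named here after their values were seen, were not called: CHTF18 differed by -0.09 ± 0.13 and CHTF8 by 0.01 ± 0.09 (limma adjusted p 0.714 and 0.945), and the sign turned for CHTF8 to -0.05 with arrays centred on their medians and for CHTF18 to 0.08 without vehicle replicate 1.

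The SMC5/6 complex is a related ring with roles in DNA repair. Of its 8 measured genes, 2 fell and 1 rose (median -0.37 log2 units), beside 10.5% lower and 9.10% higher among all probe sets, so the count of rises is near that share. SLF1, a factor that recruits the complex to DNA lesions, fell 2.40-fold (limma adjusted p 0.00441), and the kleisin gene NSMCE4A fell 1.54-fold (0.00982). NSMCE2, a SUMO ligase gene, rose 1.33-fold (limma adjusted p 0.0297). The ring genes SMC5 and SMC6, named here after their values were seen, were at -0.47 ± 0.13 and -0.59 ± 0.18 (limma adjusted p 0.0560 and 0.0792) and passed in 5 and 4 of 12 alternatives. NSMCE2 missed the threshold in 5 alternatives, among them each vehicle array left out (limma adjusted p 0.219 and 0.133, with a range of 0.0077 to 0.219 over alternatives), and NSMCE4A missed it without vehicle replicate 2 (0.0809, range 0.00136 to 0.0809).

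Partners of cohesin in chromatin looping fell in 3 of 5 measured cases, with 0 rising and a median of -0.58 log2 units. Over all probe sets the shares were 10.5% lower and 9.10% higher, with a median of 0.005 over all genes. CTCF, the insulator protein at which extruding rings stop, read 8.83 and 9.16 with LY101-4B, against 9.67 and 9.55 with vehicle, and fell 1.53-fold (limma adjusted p 0.0272). ZNF143, a looping-associated transcription factor gene, fell 1.49-fold (0.00783), and CTCFL, the germline paralog of CTCF, fell 1.53-fold (0.00753). A dimmer probe set of CTCFL differed by -0.11 (limma adjusted p 0.494), so that gene's value depends on the probe set. Without vehicle replicate 1 and without vehicle replicate 2, 0 of the 5 were called (limma adjusted p 0.0594 to 0.139 for these 3 genes). CTCF missed the threshold also without LY101-4B replicate 1 (0.0590) and over all rows (0.0850), and its adjusted p ranged over the alternatives from 0.00512 to 0.139. The ranges were 0.00152 to 0.0719 for ZNF143 and 0.00153 to 0.0606 for CTCFL.

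**Figure D4:**
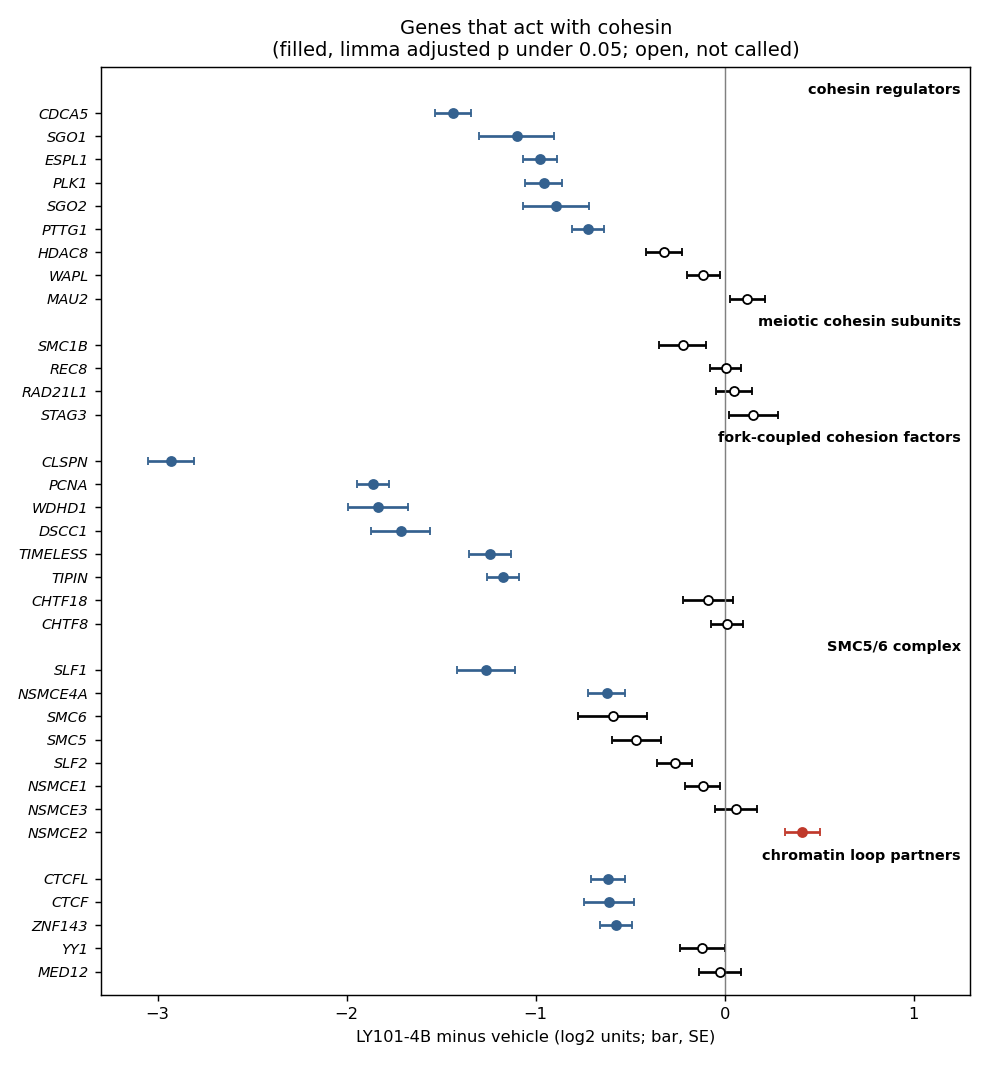
LY101-4B minus vehicle difference (x axis, log2 units, bars show the SE) of genes that act with cohesin, by list. Filled points passed limma at an adjusted p under 0.05 and open points did not. CDCA5 (-1.44) leads the regulators, and MAU2 (0.12) and WAPL (-0.11) lie near 0, while CLSPN (-2.93) is the lowest of the fork factors.

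The counts of called probe sets on which these calls rest depended on the processing. In all, 2236 fell and 1930 rose, so that 46.3% of calls were higher. With arrays centred on their medians that share was 35.9%. With single arrays left out, the counts dropped most without a vehicle array. In such fits the residual variance comes only from the group that keeps 2 arrays. Differences between replicates had an SD of 0.22 with LY101-4B and 0.16 with vehicle over the probe sets. The counts of these fits therefore cannot show the weight of a single array, and the cause of the drop was not tested. Over all 33297 rows, 1271 fell and 1162 rose.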

How the data were processed

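The authors deposited 1 table of log2 expression values per probe set for 4 arrays, made with RMA per the submitters' processing notes; its version and any filter are not stated in the labels. Quantile normalisation makes each value relative to the bulk of probe sets. Genes came from the platform annotation: 19460 of 33297 rows had 1 symbol, 1754 several and 12083 none. Rows with a symbol were tested, only single-symbol probe sets were named, and the brightest stood for a gene.

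Treatment was the only term of a linear model over the 4 arrays (lmFit and eBayes of limma 3.58.1 in R 4.3.3). Two-sided p-values were Benjamini-Hochberg adjusted over 21214 probe sets, and 0.05 was the threshold. Residual degrees of freedom were 2, and the prior added 3.75. The SE over the arrays given for gene pairs uses no prior, so it rests on 2 degrees of freedom and is imprecise. The fit was also run on simulated data, but the outcome is not given here and lends these results no support. The number of arrays limits the precision. The p-values rest on a variance pooled over both groups and drawn towards a value shared by all tested probe sets. They therefore measure the spread between these samples only in part.

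The members and lists were chosen with earlier results of these data known. Named were all members, all measured regulators and meiotic subunits, up to 4 called genes per other list (or the 2 with the smallest p), and the 3 profiles nearest to ESCO1 and ESCO2. Exceptions are marked. DDX11 and the marker INS had no single-symbol probe set used here. The result of 1 of the nearest profiles is not reported here. Alternatives were cyclic loess, median centring, all rows, the brighter 50% of probe sets, an intensity trend, a robust prior, each array left out, the replicate number as a block, and the mean of a gene's probe sets.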

Additional observations from a re-analysis of the deposited data

How the results depend on the processing

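The ESCO2 minus ESCO1 value of -2.78 ranged from -2.86 to -2.70 over 12 alternatives. Only cyclic loess (-2.80) and the fits without an array could move it. The other settings leave this estimate unchanged by construction. Of 120 recomputed values of the cohesin genes, 113 kept their side of the threshold and 7 lost a call (ESCO1, RAD21 and PDS5B). Of 403 recomputed values of the other listed genes, 370 kept it, 19 lost a call (7 genes) and 14 gained one. Among called genes, 0 changed sign in these alternatives, but most settings could not have turned one. The groups of called genes did not overlap, so leaving out an array could not turn a sign. All rows, the brighter 50%, the intensity trend, the robust prior and the block leave the differences as they are. Cyclic loess, median centring and, for genes with several probe sets, their mean could have turned one. With arrays left out in turn, 811 to 2467 probe sets were called lower and 755 to 1899 higher, 3 to 5 cohesin genes lower and 0 to 1 higher, 1 to 4 SMC5/6 genes lower and 0 to 1 higher, and 0 to 3 loop partners lower. The fits without an array have fewer samples, and their residual variance comes only from the group that keeps both arrays. Over all rows, with more probe sets tested, 1271 were called lower and 1162 higher, and 0 cohesin genes and 0 SMC5/6 genes higher. Median centring left 0 SMC5/6 genes higher, and the brighter 50% and the intensity trend each called 4 lower. SMC5 and SMC6 joined in both of these settings. SLF1 kept its call with the intensity trend but was not among the brighter 50%, where SLF2 joined. The cause of the other shifts was not tested.

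The labels number the replicates without saying that a number marks a shared culture or day. Deviations of same-numbered arrays correlated at r = 0.116. With the replicate number as a block, 2312 probe sets were called lower and 2024 higher, 4 SMC5/6 genes were called lower, SMC5 and SMC6 joining, and 5 cohesin genes lower and 1 higher. With no detection calls, signal over background is unknown, so differences of dim probe sets may be understated.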
